A study of Homo sapiens with 6 samples.

Results

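Human hFOB 1.19 cells transduced to express H3.3-G34W were compared with the same cells carrying an empty vector (EV), using 4 of the 6 RNA-seq libraries of the series, 2 for H3.3-G34W and 2 for EV. hFOB 1.19 is an immortalised fetal osteoblast line that grows at a permissive temperature, and all libraries came from cells kept at 34 °C. The vector carried Drosophila H3.3 with an HA tag, either with the glycine-to-tryptophan change or unchanged (H3.3-WT, also called wild-type H3.3 here), or no histone, and sorted bulk populations, not clones, were collected 15 days after transduction. Genes were taken where the mean of EV replicate 2 and both H3.3-G34W libraries was above 50 normalised counts, after setting aside genes whose value in H3.3-G34W replicate 1 was at least 10 times that of both H3.3-G34W replicate 2 and EV replicate 2. Of 35639 genes listed, 13493 passed the floor, 246 of these were set aside and 13247 were tested.

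H3.3 is the histone H3 variant placed into chromatin outside of replication, and the G34W change defines most giant cell tumours of bone, where the mutated cells are stromal cells of the osteoblast lineage. Glycine 34 lies close to lysine 36, a residue whose methylation marks transcribed genes and keeps Polycomb methylation of lysine 27 away from them. Homeobox and other developmental regulator genes are long-studied Polycomb targets.

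The sample titles and the genotype field swap the names of the libraries: those titled H3.3-G34W carry the H3.3-WT genotype and the reverse. The groups here follow the titles, which match the column names. The transgene is a fly cDNA and human H3.3 genes do not measure it, so these values do not check which naming is right. The human H3-3A gene stood at 4237 in EV replicate 2, at 11161 and 5570 in H3.3-G34W replicates 1 and 2, while the H3.3-WT libraries gave 3793 and 4195. Human H3-3B stood at 23982 in EV replicate 2 and at 22030 and 26483 in H3.3-G34W, so its H3.3-G34W libraries lay on either side of EV.

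The summed normalised counts were 41985190 in EV replicate 2, 38821143 and 44687077 for the H3.3-G34W replicates, and 40778682 and 48024590 for H3.3-WT. EV replicate 1 summed to 157595150 and was listed at 0 for 8059 of the 11978 genes tested outside chromosomes 10 and 11 (67.3%). Apart from a check on chromosome 12 it was used only on those 2 chromosomes, where it was above 0 for 1267 of 1269 genes tested and was divided by its median ratio to EV replicate 2, which was 23.8. Elsewhere EV replicate 2 was the lone control. The cells were collected in duplicate, and the study's methods use the word replicate for separate wells of an experiment. Whether these duplicates came from separate transductions is not given in the sources used here, so p-values measure only the spread between these libraries.

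H3.3-G34W replicate 1 stood apart from all other libraries in pluripotency genes. The 13 genes of that list summed to 53585 in it, against 602 in EV replicate 2, 568 in the other H3.3-G34W library, with 472 and 615 for H3.3-WT. POU5F1, the core pluripotency factor, was its most abundant member there at 19441, against 41.6 in EV replicate 2 and 65.7 in H3.3-G34W replicate 2. Of the 13 genes, 10 were set aside, 2 were under the floor and LIN28B was tested. None of them was listed at 0 in this library. The epithelial markers EPCAM and CDH1, also set aside, stood there at 2175 and 2104 and at no more than 64.9 in the other libraries used. The 246 genes set aside made up 1.21% of the values of this library and 0.0212% of those of H3.3-G34W replicate 2. What part this signal had in genes that passed was not tested, and the description below rests on changes that both H3.3-G34W libraries share.

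The osteoblast lineage markers were abundant throughout. The list of 8 summed to 223029 in EV replicate 2, and to 193970 and 265153 in H3.3-G34W. Its most abundant gene was COL1A2, a chain of type I collagen, at 111335 in EV replicate 2 and at 91016 and 138799 in H3.3-G34W. RUNX2, the master factor of osteoblast commitment, stood at 573 in EV replicate 2 and at 236 and 445 in H3.3-G34W. SP7, a factor of later osteoblasts, was near 0 in all, at 1.57 in EV replicate 2 and at 3.18 and 1.43 in H3.3-G34W. The myeloid list summed to 1597 in EV replicate 2 and to 1332 and 1430 in H3.3-G34W, most of it CD68, with TYROBP listed at 0 throughout. The endothelial list of 4 summed to 2095 in EV replicate 2 and to 1668 and 850 in H3.3-G34W, and its sum was mostly TEK, at 1952 in EV replicate 2 and at 1548 and 782 in H3.3-G34W. In bulk RNA, fewer cells of a type and less RNA per cell cannot be told apart.

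Against EV replicate 2, 128 genes were at least 2-fold higher in both H3.3-G34W libraries (0.966% of those tested) and 88 were at least 2-fold lower in both (0.664%). Folds are on the scale of log2(value + 1), which understates the change of low genes. H3.3-G34W replicate 1 alone had 699 genes at least 2-fold higher and 640 lower, and replicate 2 alone had 270 and 278. In 51 genes the libraries were 2-fold away from EV replicate 2 in opposite directions. The replicates of H3.3-G34W were at least 2-fold apart in 1264 genes (9.54%), and those of H3.3-WT in 954. H3.3-G34W replicate 2 and EV replicate 2 were 2-fold apart in 548 genes (4.14%), fewer than either pair of replicates. H3.3-G34W replicate 1 and EV replicate 2 were 2-fold apart in 1339 genes, more than either pair. By direction alone, both H3.3-G34W libraries lay above EV replicate 2 in 3574 genes (27%) and below it in 4082 (30.8%). The median gene differed from EV replicate 2 by −0.16 log2 in H3.3-G34W replicate 1 and by 0.07 in replicate 2. Rescaling every library to a median ratio of 1 gave 133 shared higher and 85 shared lower genes, of which 120 and 78 were those above.

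**Figure D1:**
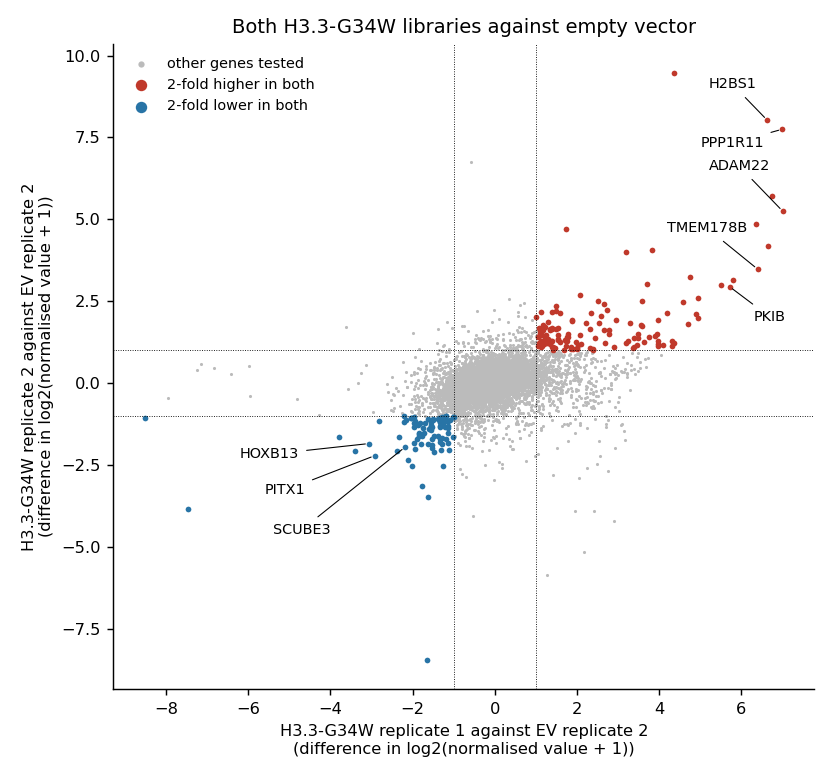
Difference from EV replicate 2 in log2(normalised value + 1) for each of 13247 genes, H3.3-G34W replicate 1 on the x axis and replicate 2 on the y axis, with dotted lines at 2-fold. The 128 genes higher in both are red and the 88 lower in both are blue, with SCUBE3, PITX1 and HOXB13 named among the lower.

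The shared changes lay mostly in genes of low abundance. Of the 216, 157 had a mean under 200 (72.7%), whereas 15.7% of all genes tested did. Among the 7282 genes with a mean above 1000, 2 were higher in both and 1 was lower in both. These 3 were named after their values were seen. RPS16, a ribosomal protein gene with many processed copies, stood at 2851 in EV replicate 2, at 10312 and 5811 in H3.3-G34W, while wild-type H3.3 gave 2085 and 6116, so H3.3-WT lay on both sides of H3.3-G34W replicate 2 and below replicate 1. AIF1L, an actin-binding protein, stood at 273 in EV replicate 2 and at 3011 and 611 in H3.3-G34W. ITPR2, a calcium channel of the endoplasmic reticulum, stood at 1884 in EV replicate 2, at 828 and 930 in H3.3-G34W, while wild-type H3.3 gave 1568 and 954. The threshold itself fell between ZFPM1, counted as lower (475 in EV replicate 2; 237 and 232 in H3.3-G34W), and FAM83H, not counted (571; 285 and 260).

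No gene except PPP1R11 passed the test across all genes. limma with Benjamini-Hochberg adjustment over 13247 genes, in which the lone EV library was assumed to vary like the 4 others, called 1 gene higher (0.00755% in all) and 0 lower in H3.3-G34W. At an unadjusted p under 0.05 it had 136 higher and 137 lower. Without H3.3-G34W replicate 2 the same fit called 26 higher and 6 lower, without H3.3-G34W replicate 1 it called 3 and 0, and without H3.3-WT replicate 1 or 2 it called 6 and 1 or 7 and 1. PPP1R11 encodes an inhibitor of protein phosphatase 1 and lies in the major histocompatibility region, for which several haplotype copies are annotated. It was listed at 0 in EV replicate 2, at 126 and 214 in H3.3-G34W, while wild-type H3.3 gave 237 and 114 (limma, Benjamini-Hochberg adjusted p = 0.0229), so EV replicate 2 was the library that differed from the 4 others. With a pseudocount of 10, with rescaled libraries or with a replicate block its adjusted p from limma was 0.682, 0.527 and 0.465.

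SCUBE3 was lower in both H3.3-G34W libraries than in every other library used. It encodes a secreted and cell-surface glycoprotein with CUB and EGF-like domains that acts with TGF-β and BMP receptors. On GRCh38 it lies at chr6:35213956-35253079. It stood at 535 in EV replicate 2, at 117 and 137 in the H3.3-G34W libraries, while wild-type H3.3 gave 520 and 560. The 2 H3.3-G34W libraries were close to each other and under every other library, and the log2 difference from EV replicate 2 was −2.07 (SE 0.47). limma with Benjamini-Hochberg adjustment over all genes did not call it. With 1 EV library that fit cannot show that the gene was unchanged.

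PITX1, HOXB13, HOXC11, LHX4 and MYF5, which encode transcription factors, were among the 12 genes furthest below EV replicate 2. PITX1, which specifies hindlimb identity, stood at 213 in EV replicate 2 and at 27.1 and 44.95 in H3.3-G34W, with 163 and 115 in H3.3-WT (log2 difference −2.57, SE 0.79). HOXB13, a posterior HOX gene, stood at 226 in EV replicate 2 and at 26.1 and 62.0 in H3.3-G34W, with 130 and 87.4 in H3.3-WT. In both of these genes the H3.3-G34W libraries were the lowest, and H3.3-WT lay between them and EV. HOXC11 stood at 176 in EV replicate 2 and at 49.7 and 48.1 in H3.3-G34W, with 94.8 and 179 in H3.3-WT. LHX4, a LIM-homeobox gene of pituitary and motor neuron development, stood at 161 in EV replicate 2 and at 41.1 and 39.1 in H3.3-G34W, but wild-type H3.3 gave 69.8 and 25.1, which overlapped. MYF5, which starts the skeletal muscle programme, stood at 109 in EV replicate 2 and at 31.2 and 11.4 in H3.3-G34W, with 79.4 and 286 in H3.3-WT.

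The other genes of the lowest 12 had diverse roles. COL17A1, a collagen of epithelial hemidesmosomes, stood at 209 in EV replicate 2 and at 40.5 and 65.5 in H3.3-G34W, with 48.9 and 270 in H3.3-WT, which overlapped. CCDC68, a coiled-coil protein of the centriole, stood at 180 in EV replicate 2 and at 33.8 and 42.2 in H3.3-G34W, with 140 and 61.8 in H3.3-WT. KCTD19 stood at 139 in EV replicate 2 and at 12.2 and 32.5 in H3.3-G34W, and LMTK3, a membrane kinase, at 142 and at 37.3 and 43.0. In KCTD19 and LMTK3 the H3.3-WT libraries overlapped those of H3.3-G34W (102 and 20.8 for KCTD19, 75.3 and 39.0 for LMTK3). CTSO, a lysosomal cysteine protease, stood at 350 in EV replicate 2 and at 111 in H3.3-G34W replicate 1 but at 0 in the other H3.3-G34W library, and wild-type H3.3 gave 330 and 0. Such an on-off pattern across groups can be a failed estimate, and no fold is given for it.

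**Figure D2:**
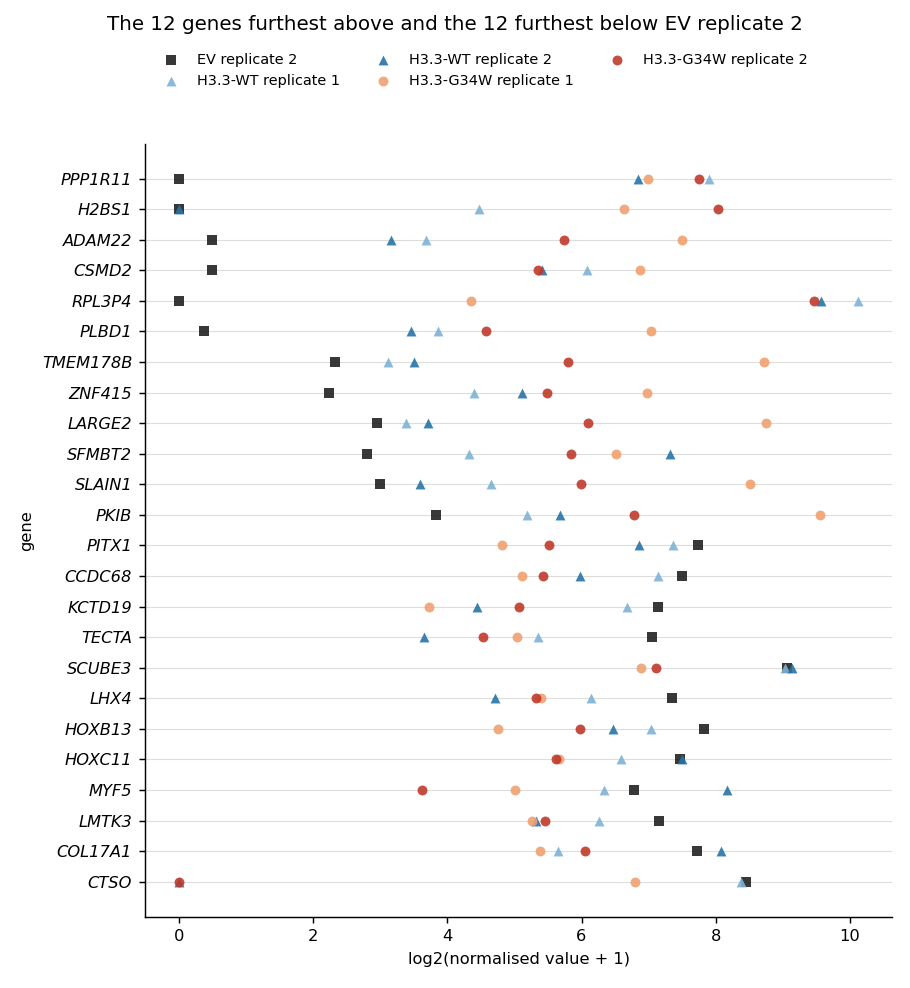
log2(normalised value + 1) in EV replicate 2 and in each H3.3-G34W and H3.3-WT library for the 12 genes furthest above and the 12 furthest below EV replicate 2 in both H3.3-G34W libraries, 1 point per library. In SCUBE3 and PITX1 the H3.3-G34W points lie below all others, while in PPP1R11 only EV replicate 2 is apart.

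The genes furthest above EV replicate 2 were near 0 there, and most had their higher value in H3.3-G34W replicate 1. ADAM22, a neuronal membrane protein without protease activity, stood at 0.402 in EV replicate 2, at 179 and 52.4 in H3.3-G34W, while wild-type H3.3 gave 11.8 and 7.94. TMEM178B, a transmembrane protein gene, stood at 4.01 in EV replicate 2, at 421 and 54.9 in H3.3-G34W, while wild-type H3.3 gave 7.71 and 10.3. PKIB, an inhibitor of cAMP-dependent protein kinase, stood at 13.3 in EV replicate 2, at 747 and 109 in H3.3-G34W, while wild-type H3.3 gave 35.3 and 50.4 (log2 difference 4.33, SE 1.05). In these 3 genes both H3.3-G34W libraries lay above every other library. SLAIN1, which binds growing microtubule ends, stood at 6.96 in EV replicate 2 and at 363 and 62.6 in H3.3-G34W, and LARGE2, a glycosyltransferase that modifies dystroglycan, at 6.72 and at 428 and 67.2, with 30.8 in EV replicate 1. PLBD1, a phospholipase B-like protein, stood at 0.302 in EV replicate 2 and at 130 and 22.9 in H3.3-G34W, but EV replicate 1 was near the latter at 19.0 once scaled, as given below for chromosome 12, and ZNF415, a zinc finger gene, at 3.71 and at 125 and 43.8. CSMD2, a large membrane protein with CUB and sushi domains, stood at 0.415 in EV replicate 2 and at 116 and 39.9 in H3.3-G34W, but wild-type H3.3 also gave 66.5 and 41.4.

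Across the 128 higher genes, in 49 the value of H3.3-G34W replicate 1 was at least 2 times that of replicate 2, and in 38 replicate 2 was at least as high. EV replicate 2 was under 50 in 86 of the 128, so these passed the floor through the H3.3-G34W libraries. Of the remaining genes of the upper 12, H2BS1 and RPL3P4 were listed at 0 in EV replicate 2 and share sequence with near-identical copies, so their values are uncertain. H2BS1, a histone H2B gene, stood at 97.8 and 261 in H3.3-G34W. RPL3P4, a pseudogene of a ribosomal protein gene, stood at 19.5 and 703 in H3.3-G34W and at 1116 and 759 in H3.3-WT.

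As a group, HOX genes were lower in H3.3-G34W than in EV replicate 2. These genes encode the transcription factors that set position along the body and limb axes. Of 39 listed, 28 were tested, and 24 of the 28 were below EV replicate 2 in both H3.3-G34W libraries (85.7%, against 30.8% of all genes tested), with the same count after rescaling. All 28 were set against the same lone EV library and lie in shared clusters, so they are not independent observations of the condition. HOXA7 was the lone gene above it in both, named after its value was seen, at 97.0 in EV replicate 2 and at 172 and 139 in H3.3-G34W. The summed HOX value was 10870 in EV replicate 2, 6730 and 8880 in H3.3-G34W, while wild-type H3.3 gave 9925 and 11394. The median difference was −0.90 log2 in H3.3-G34W replicate 1 and −0.33 in replicate 2, against −0.16 and 0.07 over all genes, and rescaled medians were −0.74 and −0.40. limma with Benjamini-Hochberg adjustment called 0 of the 28, and 4 were lower at an unadjusted p under 0.05.

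Of the 28 HOX genes tested, 4 were at least 2-fold lower in both libraries, beside 0.664% of all genes tested. All 4 belonged to paralogue groups 9 to 13, which act in the limb and the posterior trunk. HOXD10 stood at 394 in EV replicate 2, at 159 and 94.8 in H3.3-G34W, while wild-type H3.3 gave 342 and 368 (log2 difference −1.67, SE 0.53). Its neighbour HOXD11 stood at 338 in EV replicate 2, at 133 and 97.3 in H3.3-G34W, while wild-type H3.3 gave 319 and 299 (−1.56, SE 0.54). For both genes EV replicate 2 and the H3.3-WT libraries lay close together and H3.3-G34W lay clearly below. HOXB13 and HOXC11, described above, were the other 2. Among the 12 tested genes of groups 9 to 13 the medians were −1.13 and −0.84, with 10 below EV replicate 2 in both libraries. Among the 16 of groups 1 to 8 the medians were −0.74 and −0.27, with 14 below in both. The difference between the paralogue groups was not tested.

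**Figure D3:**
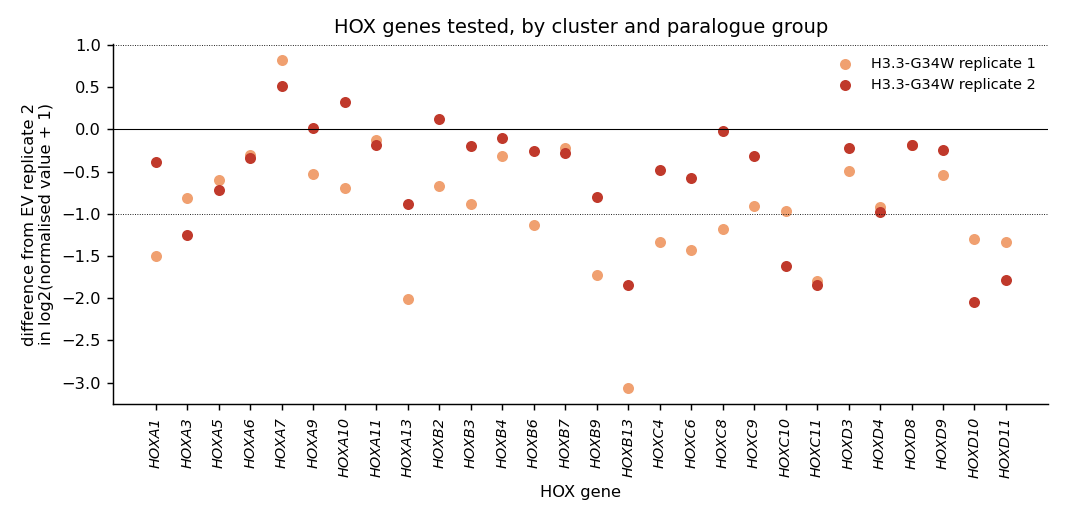
Difference from EV replicate 2 in log2(normalised value + 1) for the 28 HOX genes tested, ordered by cluster and paralogue group, with 1 point for each H3.3-G34W library and dotted lines at 2-fold. In 24 genes both points are below 0, and HOXB13, HOXC11, HOXD10 and HOXD11 have both points under −1.

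Limb and mesoderm factors followed less closely. Of 37 tested, PITX1 and SHOX were at least 2-fold lower in both libraries. SHOX, a homeobox gene of long bone growth, stood at 144 in EV replicate 2 and at 49.2 and 43.5 in H3.3-G34W, but wild-type H3.3 also gave 46.4 and 70.4. By direction alone, 19 of the 37 were below EV replicate 2 in both libraries (51.4%, beside 30.8% of all genes tested). The list medians were −0.55 and −0.05, against −0.16 and 0.07 over all genes. The median thus lay further below EV replicate 2 in H3.3-G34W replicate 1.

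Among secreted signals, 2-fold changes occurred in both directions. Of 51 genes of SCUBE and TGF-β/BMP signalling, 28 were below EV replicate 2 in both libraries (54.9%, beside 30.8% of all genes tested). Another 4 were above it in both (7.84%, beside 27% of all genes tested). Of the same 51, 2 were at least 2-fold lower in both, SCUBE3 and GDF6, beside 0.664% of all genes tested. GDF6, a BMP-family ligand of joint and skeletal patterning, stood at 999 in EV replicate 2 and at 291 and 322 in H3.3-G34W (log2 difference −1.70, SE 0.43), with 486 and 374 in H3.3-WT. H3.3-WT thus lay between the H3.3-G34W libraries and EV for GDF6, unlike for SCUBE3. Of 42 growth factors, binding proteins and receptors, 25 were below EV replicate 2 in both libraries (59.5%, beside the same 30.8%), with medians of −0.47 and −0.15. Another 6 were above it in both (14.3%, beside the same 27%). IGF2 and NTRK3 were at least 2-fold lower in both and FLT1 and EGF were at least 2-fold higher in both. Over all genes tested, 0.664% were lower and 0.966% higher by that rule, and counts of 2 are too few to set against it. FLT1, a VEGF receptor, stood at 203 in EV replicate 2 and at 831 and 461 in H3.3-G34W, with 259 and 404 in H3.3-WT. EGF stood at 77.9 in EV replicate 2 and at 227 and 199 in H3.3-G34W, but H3.3-WT was as high, at 204 and 257. NTRK3, a neurotrophin receptor, stood at 114 in EV replicate 2 and at 36.1 and 30.6 in H3.3-G34W, but wild-type H3.3 gave lower values still, 29.3 and 8.40.

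In the matrix, collagen genes showed a few shared 2-fold changes, which went in both directions. Of 31 collagen chains tested, COL10A1 was at least 2-fold higher in both libraries and COL8A2 and COL17A1 were at least 2-fold lower in both. COL10A1, the collagen of hypertrophic cartilage, stood at 76.6 in EV replicate 2 and at 529 and 239 in H3.3-G34W, with 193 and 590 in H3.3-WT. COL8A2, a short-chain collagen, stood at 735 in EV replicate 2 and at 249 and 331 in H3.3-G34W, with 489 and 293 in H3.3-WT. In both of these genes the H3.3-WT libraries overlapped those of H3.3-G34W. The collagen medians were −0.52 and −0.10, with 16 of 31 below EV replicate 2 in both libraries (51.6%, beside 30.8% of all genes tested). Another 3 were above it in both (9.68%, beside 27% of all genes tested). Of 48 proteases, inhibitors and crosslinkers, MMP1 and MMP3 were at least 2-fold higher in both, and of 56 matrix glycoproteins and proteoglycans 0 were 2-fold away in both, beside the 0.966% higher and 0.664% lower of all genes tested. Of these 56, 24 were below EV replicate 2 in both libraries (42.9%, beside 30.8%), with medians of −0.39 and −0.05.

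Among surface and cytoskeletal genes, ITGB2, the leukocyte integrin chain, stood at 261 in EV replicate 2 and at 55.9 and 128 in H3.3-G34W, with 95.5 and 109 in H3.3-WT. ITGA9 stood at 7.92 in EV replicate 2 and at 176 and 18.5 in H3.3-G34W, with 46.4 and 51.7 in H3.3-WT. These were the shared changes among 29 integrins and cadherins, beside 0.966% higher and 0.664% lower over all genes tested. KRT19, a keratin of simple epithelia, was the 1 shared change among 42 contractile and cytoskeletal genes, at 331 in EV replicate 2, at 1411 and 757 in H3.3-G34W, while wild-type H3.3 gave 296 and 687 (log2 difference 1.64, SE 0.51). In KRT19 both H3.3-G34W libraries lay above the rest, and the epithelial markers of H3.3-G34W replicate 1 given above were higher in the same library, their part being not tested. TMEM178B was the 1 shared change among 29 neuronal genes. Counts of 1 or 2 in lists of this size are too few to set against that background.

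Of 19 osteoblast differentiation genes and 29 osteoclast-regulating factors, 0 were 2-fold away from EV replicate 2 in both libraries. With 0.966% higher and 0.664% lower over all genes tested, lists of this size are near the background at 0. TNFRSF11B, the decoy receptor that blocks RANKL, stood at 1017 in EV replicate 2 and at 1022 and 894 in H3.3-G34W, so it differed by less than the replicates did. TNFSF13, a ligand of the TNF family, stood at 94.8 in EV replicate 2 and at 96.6 and 123 in H3.3-G34W. TNFSF11, which encodes RANKL, the signal that makes osteoclasts, was under the floor, at 2.86 in EV replicate 2 and at 69.7 and 1.30 in H3.3-G34W, so its higher value stood in H3.3-G34W replicate 1 alone. ALPL, the bone alkaline phosphatase and a lineage marker, stood at 428 in EV replicate 2 and at 1216 and 107 in H3.3-G34W, on opposite sides of EV.

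Immune lists also moved in opposite directions in the H3.3-G34W libraries. The median of 48 interferon-stimulated genes was −0.68 log2 in replicate 1 and 0.26 in replicate 2, and that of 44 chemokine, interleukin and NF-κB genes was −0.58 and 0.18. Neither list had a shared change. The count of shared changes was also 0, near the same background, among each of 43 cell cycle genes, 23 p53 targets, 32 WNT pathway genes, 25 semaphorins, plexins and neuropilins, 33 AP-1, Ets and ZBTB40 factors, 10 genes of H3.3 and its chaperones, and 23 enzymes of H3K36, H3K27 and DNA methylation. For the chromatin enzymes the medians of −0.19 and 0.05 were close to those of all genes, as were the cell cycle medians of −0.21 and 0.08. Among p53 targets 15 of 23 were below EV replicate 2 in both libraries (65.2%), with medians of −0.42 and −0.06, and among semaphorins, plexins and neuropilins 14 of 25 were (56%), with medians of −0.39 and −0.10, beside 30.8% of all genes tested.

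**Figure D4:**
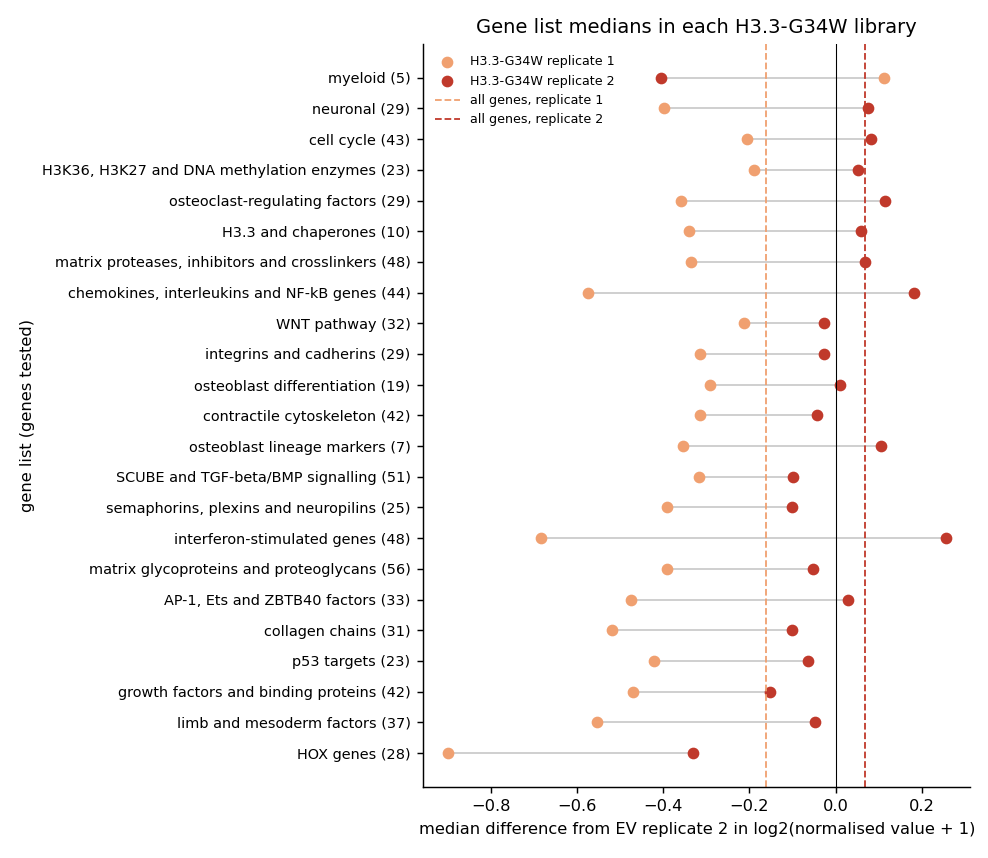
Median difference from EV replicate 2 in log2(normalised value + 1) over the tested genes of each list with at least 5 of them, 1 point for each H3.3-G34W library, with dashed lines at the all-gene medians of −0.16 and 0.07. HOX genes lie lowest in H3.3-G34W replicate 1 (−0.90) and, after the 5 myeloid genes (−0.40), in replicate 2 (−0.33), and the points of interferon-stimulated genes, at −0.68 and 0.26, are on opposite sides of 0.

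On chromosomes 10 and 11 both EV libraries could be used. There, 13 of 1269 genes were at least 2-fold higher in both H3.3-G34W libraries than in EV replicate 2 (1.02%), and 9 of the 13 were also at least 2-fold above EV replicate 1. Of the 5 lower genes (0.394%), IGF2 alone was at least 2-fold below EV replicate 1 as well. With EV replicate 1 as the reference, a choice made after seeing the data, 35 genes were higher and 8 lower, of which the same 9 and 1 were shared (25.7% and 12.5%). The EV libraries differed by at least 2-fold in 59 genes (4.65%) and the H3.3-G34W libraries in 127 (10.01%). Both H3.3-G34W libraries lay above both EV libraries in 236 genes (18.6%) and below both in 229 (18%). limma with Benjamini-Hochberg adjustment over the 1269 genes called 0 in either direction, with 29 higher and 44 lower at an unadjusted p under 0.05. Without EV replicate 2 it called 13 higher and 0 lower.

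Of the 5 genes with the widest gap below both EV libraries, IGF2 and MACROH2A2 had the smallest p from limma with Benjamini-Hochberg adjustment. IGF2, an imprinted fetal growth factor, lies on GRCh38 at chr11:2129117-2149566, and the overlapping readthrough gene INS-IGF2 was listed at 0 throughout. It stood at 562 and 544 in EV replicates 1 and 2, at 185 and 237 in H3.3-G34W, while wild-type H3.3 gave 438 and 627. The log2 difference from both EV libraries was −1.40 (SE 0.31), with a limma p adjusted by Benjamini-Hochberg of 0.551. MACROH2A2, a histone H2A variant of silent chromatin, stood at 1941 and 1940 in EV, at 1057 and 849 in H3.3-G34W, while wild-type H3.3 gave 1425 and 1538 (−1.03, SE 0.23, limma Benjamini-Hochberg adjusted p = 0.551). In both genes H3.3-G34W lay below all other libraries without overlap.

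ADRA2A, an adrenergic receptor, stood at 80.6 and 99.97 in EV, at 26.6 and 40.4 in H3.3-G34W, while wild-type H3.3 gave 93.9 and 89.6. PAMR1, a secreted protease-like protein of regenerating muscle, stood at 2033 and 1637 in EV and at 763 and 992 in H3.3-G34W, with 1630 and 780 in H3.3-WT. ABCG4, a sterol transporter, stood at 96.4 and 89.7 in EV and at 26.04 and 48.6 in H3.3-G34W, with 84.9 and 29.6 in H3.3-WT. EV and H3.3-G34W did not overlap in these 3 genes, but in PAMR1 and ABCG4 an H3.3-WT library was as low as H3.3-G34W. Of the lowest 12, TECTA and COL17A1 are the 2 on these chromosomes, and in both EV replicate 1 was unlike EV replicate 2 and near H3.3-G34W. TECTA, which encodes α-tectorin of the inner ear, stood at 31.1 in EV replicate 1 and 132 in EV replicate 2, with 31.9 and 22.2 in H3.3-G34W, while wild-type H3.3 gave 39.9 and 11.6. COL17A1 stood at 59.4 in EV replicate 1 and 209 in EV replicate 2, with H3.3-G34W at 40.5 and 65.5. P2RY6, a nucleotide receptor named after its values were seen, as the last of the 5 genes at least 2-fold below EV replicate 2 on these chromosomes, stood at 58.2 and 115 in EV and at 37.5 and 43.2 in H3.3-G34W.

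The higher genes with the widest gap to both EV libraries were SFMBT2, OGDHL, KCNE3, MMP3 and AKR1C1. SFMBT2, a Polycomb-group protein, stood at 8.11 and 5.95 in EV, at 90.2 and 56.1 in H3.3-G34W, while wild-type H3.3 gave 19.1 and 158. OGDHL, a relative of the 2-oxoglutarate dehydrogenase subunit, stood at 15.5 and 19.6 in EV, at 118 and 72.0 in H3.3-G34W, while wild-type H3.3 gave 18.6 and 24.3. Of these 5 genes OGDHL alone had H3.3-WT at the level of EV. MMP3, a stromal protease, stood at 21.6 and 44.7 in EV and at 248 and 119 in H3.3-G34W, and its neighbour MMP1, a collagenase, at 11.4 and 34.99 and at 77.8 and 101. H3.3-WT replicate 2 was higher than either H3.3-G34W library for both proteases, at 772 for MMP3 and 240 for MMP1. AKR1C1, a steroid-metabolising reductase, stood at 13.3 and 19.9 in EV and at 325 and 46.8 in H3.3-G34W, and KCNE3, a potassium channel subunit, at 15.5 and 22.6 and at 78.1 and 61.9. H3.3-WT lay within the range of H3.3-G34W or close to it for both, at 71.6 and 87.9 for AKR1C1 and at 71.2 and 50.5 for KCNE3.

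**Figure D5:**
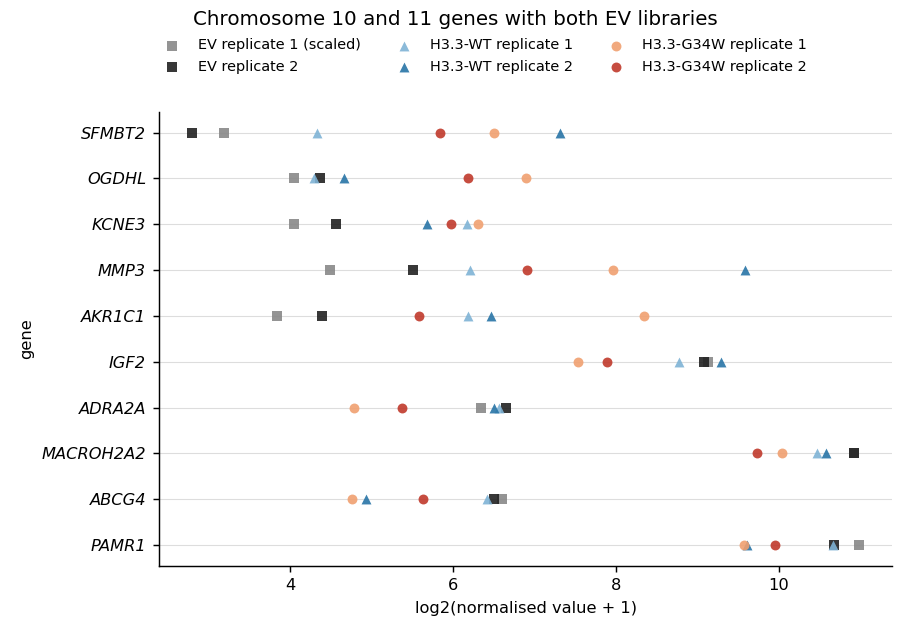
log2(normalised value + 1) in each of the 6 libraries for the 5 genes of chromosomes 10 and 11 furthest above and the 5 furthest below both EV libraries, with EV replicate 1 divided by its median ratio to EV replicate 2. For IGF2 and MACROH2A2 the H3.3-G34W points lie below the 4 other points, and for MMP3 the highest point is H3.3-WT replicate 2.

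EV replicate 1 also held values on the first 100 Mb of chromosome 12, which was seen in the data and used only here. Over 457 genes tested there it was above 0 for 456, with a median ratio to EV replicate 2 of 24.4, and it was divided by the 23.8 found on chromosomes 10 and 11. Against EV replicate 2, 5 of the 457 were at least 2-fold higher in both H3.3-G34W libraries (1.09%) and 5 were lower (1.09%), and 2 and 4 of these were also at least 2-fold beyond EV replicate 1. HOXC11 stood at 193 in EV replicate 1 and 176 in EV replicate 2, above the 49.7 and 48.1 of H3.3-G34W, and MYF5 at 83.5 and 109, above 31.2 and 11.4. The 6 HOXC genes tested summed to 1775 and 1519 in EV and to 649 and 988 in H3.3-G34W, with 1139 and 1431 in H3.3-WT, so the H3.3-G34W sums were the lowest. For PLBD1, LIN7A, MBD6 and ITPR2 both H3.3-G34W libraries were at least 2-fold away from EV replicate 2 but not both from EV replicate 1. EV replicate 1 stood at 19.0 for PLBD1 and at 1368 for ITPR2. For LIN7A it stood at 163, level with the 175 and 149 of H3.3-G34W, and for MBD6 at 137, near 147 and 162. LIN7A and MBD6 were named after their values were seen.

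Promoters of the changed genes were searched for an AP-1 site (TGANTCA) and an Ets site (CCGGAAGT), on both strands, in RefSeq sequence of GRCh38.p14 from 250 bases before to 50 after the transcript start that the table lists first for each gene. Of the higher genes 87 had a promoter in the table, and 6 held the AP-1 letters (6.90%) and 3 the Ets letters (3.45%). Of the lower genes 61 had one, and 2 held the AP-1 letters (3.28%) and 0 the Ets letters. Over the promoters of all genes tested the shares were 4.39% and 8.93%, and over all 27305 promoters 7.76% and 4.44%. The genes described above that held a match before the start, and whose listed start is also the outermost start of the gene, are shown, each with up to 40 bases on either side and the match in capitals, because they are the ones whose values are given. A match is a description of these letters.
PAMR1, below both EV libraries but not counted among the lower genes, chr11:35530461-35530547, minus strand: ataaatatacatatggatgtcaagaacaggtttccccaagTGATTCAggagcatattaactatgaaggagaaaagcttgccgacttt
EGF, higher, chr4:109912826-109912882, plus strand: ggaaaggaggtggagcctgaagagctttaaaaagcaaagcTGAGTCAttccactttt
PKIB, higher, chr6:122471786-122471873, plus strand, with the Ets letters on the other strand: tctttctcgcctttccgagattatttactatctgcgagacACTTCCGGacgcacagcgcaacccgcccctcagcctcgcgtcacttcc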

How the data were processed

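Poly(A) RNA of hFOB 1.19 cells was sequenced, with a directional library kit per the labels (the study's methods also describe a TruSeq preparation), from 2 libraries each for EV, H3.3-WT and H3.3-G34W. The authors estimated transcript abundance with kallisto on GRCh38 and normalised it with DESeq2; the deposited signal is a normalised estimated count per gene, not whole reads, so no count test was run and depth cannot be read from it. Whether quantification used strand is not given in the sources used here. Chromosomes came from matching Ensembl IDs (35301 of 35639), and positions from RefSeq GRCh38.p14. Values were analysed as log2(value + 1) with limma 3.58.1 (R 4.3.3, variance trend, two-sided, H3.3-WT libraries kept in the fit) and Python 3.11.15. The fit was also run on simulated data in which noise was drawn alike for every library. Those data had no library that stood apart, so that run does not bear on the calls made here. Members and the 26 gene lists were chosen with earlier results of these data known. The genes described were the 12 furthest from EV replicate 2 in each direction by the nearer H3.3-G34W library (with a symbol, and no readthrough, antisense or clone-based name), the 5 with the widest gap each way on chromosomes 10 and 11, up to 4 changed members per list, and SCUBE3, TNFSF11, TNFRSF11B, TNFSF13, H3-3A and H3-3B. Alternatives changed the fold, pseudocount, floor, scaling, set-aside ratio, variance trend and libraries.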

Additional observations from a re-analysis of the deposited data

Results flagged for a closer look

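The genes set aside hold a signal outside the comparison. In H3.3-G34W replicate 1 the 13 pluripotency genes summed to 53585 normalised counts, while the other libraries used had between 472 and 615, EV replicate 2 included at 602. Its cause was not tested.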

How the results depend on the processing

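Counts of shared genes depended on the thresholds by their construction. At 1.5-fold 362 genes were higher and 367 lower, at 3-fold 42 and 20, with a floor of 20 241 and 169, and with a floor of 200 30 and 29. Each H3.3-G34W library alone gave 270 to 699 higher and 278 to 640 lower, against 128 and 88 for both. A pseudocount of 10 (95 and 79), rescaling, and setting aside at 5 times (108 and 88) or not at all (167 and 88) stayed within 1.5 times. limma with Benjamini-Hochberg adjustment, 1 higher and 0 lower, gave 0 higher with a pseudocount of 10, a floor of 200, rescaling, no variance trend or no gene set aside, and 5 higher and 1 lower without H3.3-WT. Leaving out 1 library gave 3 to 26 higher and 0 to 6 lower, the most without H3.3-G34W replicate 2; a lone library was then assumed to vary like the others. On chromosomes 10 and 11 it gave 0 to 13 higher, 13 without EV replicate 2, and 0 lower throughout. EV replicate 1 as the reference there gave 35 higher and 8 lower in place of 13 and 5, and requiring both EV libraries gave 9 and 1; on the first 100 Mb of chromosome 12 it gave 2 and 4 in place of 5 and 5, all chosen after seeing the data. The cause was not tested.

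With replicate number as a block, limma called 0 genes higher and 0 lower in both fits, with 146 and 112 at an unadjusted p under 0.05 across all genes and 38 and 63 on chromosomes 10 and 11. Same-numbered deviations correlated across genes at −0.09 for H3.3-G34W with EV (chromosomes 10 and 11) and at 0.07 for H3.3-G34W with H3.3-WT. The main fits did not use the pairing. With 2 libraries per group, these correlations cannot tell whether same-numbered libraries share a transduction or a batch. Of the 51 tested genes that the naming rule gave, TNFRSF11B (−0.19 to 0.0076 log2 over the libraries left out) and H3-3B (−0.12 to 0.14) changed sign without H3.3-G34W replicate 2. The depth behind each value is unknown, and low genes carry most of the shared changes.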

Other observations

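HOXC13, under the floor and therefore in no count, stood at 76.2 in EV replicate 2, at 8.70 and 4.55 in the H3.3-G34W libraries, while wild-type H3.3 gave 56.1 and 37.9. HOXD1, also under the floor, stood at 43.1 in EV replicate 2, at 16.4 and 17.6 in H3.3-G34W, while wild-type H3.3 gave 42.8 and 34.98. In both genes the H3.3-G34W libraries were the lowest. Both were named after their values were seen. TGFB2, tested but under 2-fold in H3.3-G34W replicate 2, stood at 1613 in EV replicate 2, at 760 and 1018 in H3.3-G34W, while wild-type H3.3 gave 1198 and 928. PTGS2, which makes prostaglandins, stood at 893 in EV replicate 2, at 429 and 578 in H3.3-G34W, while wild-type H3.3 gave 1058 and 1113, with H3.3-G34W below the rest. These 2 were likewise named after their values were seen.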
